A study of Mus musculus with 6 samples.

Results

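The hair cell fate transcription factors are 10 protein-coding genes that direct or stabilise the sensory hair cell fate in the inner ear: Atoh1, Pou4f3, Gfi1, Barhl1, Lhx3, Insm1, Rfx1, Rfx3, Ikzf2 and Tbx2. They were taken by symbol from 21887 protein-coding genes of mm10, and all 10 matched. The study profiled H3K4me3 by chromatin immunoprecipitation and sequencing in 2 neomycin libraries and 2 untreated libraries. It also holds 2 input libraries, which were not analysed here. The cells of both groups came from cultured cochleae of C57BL/6 mice of either sex, aged postnatal day 0 to 3, that carry Lgr5-EGFP-creERT2, an allele with a green fluorescent reporter and an inducible Cre recombinase under Lgr5. Dissociated cells were sorted on the green fluorescence. Neomycin, an aminoglycoside antibiotic that kills hair cells, was given for 12 h, and the other group was untreated. The labels do not say how many animals went into a library or whether replicates were cultured apart, so p-values measure only the spread between these libraries.

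H3K4me3 is a histone mark laid down around the start sites of active and poised genes, mostly where CpG dinucleotides are dense. Lgr5-positive cells are supporting cells of the neonatal organ of Corti, some of which can divide and form new hair cells. Atoh1 is the basic helix-loop-helix (bHLH) factor that starts the hair cell programme. It pairs with E proteins, keeps itself on through an enhancer downstream of its own gene, and is held down in supporting cells by Notch signalling through the Hes and Hey repressors. Pou4f3, Gfi1, Barhl1 and Lhx3 act after Atoh1 in the differentiation or survival of hair cells, Insm1, Ikzf2 and Tbx2 separate outer from inner hair cells, and the Rfx factors keep hair cells alive.

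RefSeq start sites of GRCm38.p6, the assembly of mm10, were available for 6 of the 10 members. The 250 bases before the start site are shown for 4 of them, chosen because their start sites had a peak in 4, 3, 2 and 1 libraries, in that order. CpG dinucleotides are in capitals, and each sequence runs 5′ to 3′ on the strand of its gene. They lie at chr19:28011167-28011416 (Rfx3, minus strand), chr8:84066586-84066835 (Rfx1, plus strand), chr6:64728875-64729124 (Atoh1, plus strand) and chr2:28916669-28916918 (Barhl1, minus strand).
Rfx3: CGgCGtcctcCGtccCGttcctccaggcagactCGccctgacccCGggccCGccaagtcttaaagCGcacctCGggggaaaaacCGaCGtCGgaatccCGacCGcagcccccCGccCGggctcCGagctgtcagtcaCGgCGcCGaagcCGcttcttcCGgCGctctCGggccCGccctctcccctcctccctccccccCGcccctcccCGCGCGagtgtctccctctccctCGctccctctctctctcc
Rfx1: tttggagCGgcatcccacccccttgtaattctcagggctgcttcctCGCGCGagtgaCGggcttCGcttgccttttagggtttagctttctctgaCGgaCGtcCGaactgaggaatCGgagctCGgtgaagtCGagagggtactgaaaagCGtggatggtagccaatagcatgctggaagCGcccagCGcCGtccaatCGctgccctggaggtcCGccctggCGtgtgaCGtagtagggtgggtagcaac
Atoh1: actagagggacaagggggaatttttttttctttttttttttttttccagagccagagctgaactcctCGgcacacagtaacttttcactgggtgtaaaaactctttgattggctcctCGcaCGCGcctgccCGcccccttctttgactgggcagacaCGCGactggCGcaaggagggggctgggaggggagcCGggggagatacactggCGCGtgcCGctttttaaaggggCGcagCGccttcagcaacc
Barhl1: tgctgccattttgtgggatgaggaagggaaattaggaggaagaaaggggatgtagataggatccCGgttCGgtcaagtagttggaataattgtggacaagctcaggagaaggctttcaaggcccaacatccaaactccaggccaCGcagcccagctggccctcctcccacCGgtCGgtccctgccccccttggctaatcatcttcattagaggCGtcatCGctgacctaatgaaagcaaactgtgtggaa
These stretches hold 30, 20, 14 and 7 CpG, respectively. The Barhl1 site shown, at base 28916668, lies inside the gene and not at its end. Of the stretches not shown, those of Gfi1, with a peak in 1 library, hold 13 and 9 CpG. Those of Lhx3, with a peak in no library, hold 11 and 22, and that of the other Barhl1 site, also with none, holds 12. The fall in CpG over the 4 shown therefore depends on their choice.

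Each library has its own deposited peak list, of 14203 and 11545 peaks in neomycin replicates 1 and 2 and 15938 and 10520 in untreated replicates 1 and 2. The shortest peak was 48 and 110 bp in the neomycin lists and 187 and 234 bp in the untreated lists, and the median peak 70 and 142 bp against 310.5 and 340 bp. Peak lengths thus differed between the lists as wholes, and the part of this in the length differences given for single genes was not tested. The pileup, the number of fragments stacked at the summit of a peak, had a median of 7 and 11 with neomycin and 13 and 11 without, and it is not scaled between libraries. Read totals are not in the lists, so the sequencing depth is unknown, and a gene without a peak is one where none was called. The deposited names of the untreated lists read H3K4me2 while the labels give H3K4me3 for every library, so the mark in those lists is to that extent uncertain. Of 20 markers of supporting and progenitor cells, 16 and 17 had a peak within 1 kb of the start with neomycin and 19 and 16 without, Lgr5 among them in every library, and none of 12 genes of other tissues, such as Alb and Myod1, had one in any library.

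At its start site Atoh1 had peaks in the 2 untreated libraries and none with neomycin. The gene lies on chromosome 6 from 64729125 to 64731245. In untreated replicate 1 a first peak of 207 bp began 0.179 kb after the start site (pileup 12), and a second of 394 bp began 0.963 kb after it (pileup 16). In untreated replicate 2 the first peak was 287 bp long and began at the same base (pileup 11), and the second was 275 bp long and began 0.986 kb after the start (pileup 10). The shorter of each pair lay wholly inside the longer, over 207 and 275 bp, so both peaks were found at the same places in the 2 untreated libraries. These marks were of middling strength: by the caller's q the strongest Atoh1 peak stood at percentile 83.0 of the list of untreated replicate 1 and 54.1 of that of untreated replicate 2.

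Beyond its 3′ end, Atoh1 was marked in 1 library of each group. A peak of 319 bp in neomycin replicate 2 (pileup 11, fold enrichment 5.16) began 3.17 kb past the gene end, at chr6:64734415-64734733. A peak of 234 bp in untreated replicate 2 (pileup 9, fold enrichment 5.99) began 3.44 kb past it, at chr6:64734684-64734917, and the 2 peaks overlapped by 50 bp. They lie on the side of the gene that holds its autoregulatory enhancer; the position of that enhancer was not used here, so its overlap with the peaks was not tested. Untreated replicate 2 also had a peak of 393 bp 0.82 kb before the start, within the long noncoding RNA gene Gm35851, which ends 264 bp from Atoh1. Neomycin replicate 1 had no peak in the gene or within 5 kb of it. Over the gene and 5 kb either side, the peaks summed to 0 and 319 bp with neomycin and 601 and 1189 bp without, so the untreated sums were both the higher. The same held for Insm1, Rfx1, Tbx2 and Rfx3, 5 of the 10 members in all, and for 54.7% of the 13634 genes with a peak in at least 1 library, while the reverse held for no member and 2.77% of those genes. The members' share is near the background, so this order of the sums is not a result about Atoh1 or the other 4.

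Tbx2, which encodes the T-box factor that sets the inner hair cell fate and is also used in cochlear mesenchyme, carried the most peaks of the 10 genes in both untreated libraries. It lies on chromosome 11 from 85832615 to 85841948. Untreated replicate 1 had 8 peaks summing to 3139 bp over a span of 10832 bp, and untreated replicate 2 had 7 summing to 2562 bp over 12808 bp. Only 14 of the 21887 genes had at least as many peaks in the first of these libraries and 8 in the second, Tbx2 counted. The strongest peak stood 0.04 kb before the lower end of the gene in the first (pileup 19) and 0.197 kb after it in the second (pileup 16), at percentiles 95.2 and 96.4 of their lists by q. Neomycin replicate 1 had 3 peaks, of 48, 99 and 59 bp, summing to 206 bp, the first 2 inside untreated regions in the gene body and the third 1.64 kb past the upper end. Neomycin replicate 2 had none, and its nearest peak was 415 kb away. No neomycin peak lay within 1 kb of the lower end of the gene. The counts include peaks in the long noncoding RNA gene 2610027K06Rik, which ends 227 bp from Tbx2. The first peak of each untreated library, of 219 and 293 bp, lies wholly in it, and the next, of 501 and 249 bp, lies partly in it.

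**Figure D1:**
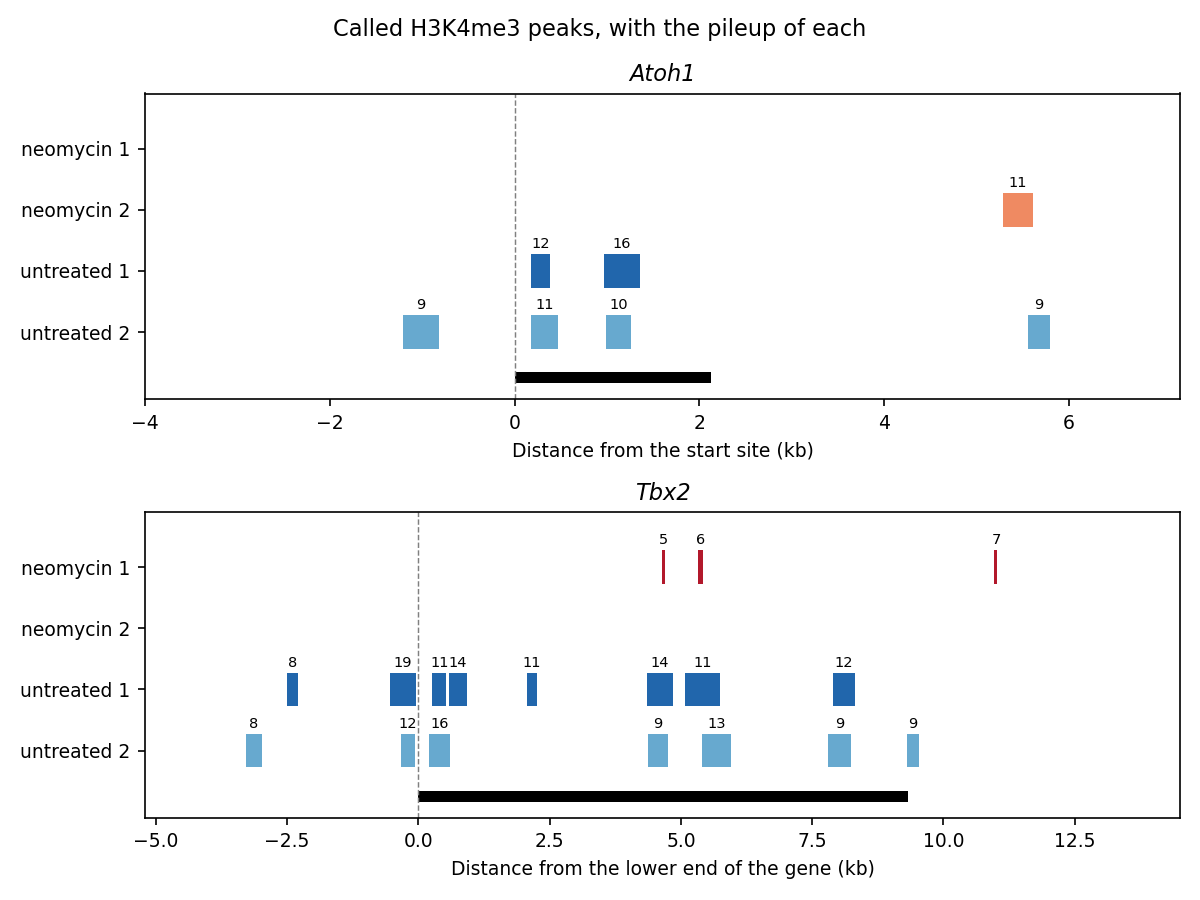
Called peaks at Atoh1 and Tbx2 in the 4 libraries. The x axis is the distance in kb from the Atoh1 start site or from the lower end of Tbx2, each bar is a peak, the number above it is its pileup, and the black bar is the gene. Both untreated libraries have peaks just after the Atoh1 start and along Tbx2, and the neomycin libraries have 1 peak 3.17 kb past Atoh1 and 3 short peaks at Tbx2.

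The genes that follow Atoh1 in differentiation were marked thinly. Pou4f3, a POU-domain factor without which hair cells die, lies on chromosome 18 from 42394597 to 42396093. It had 1 peak at its lower end in replicate 1 of each group, of 79 bp (pileup 6) with neomycin and 332 bp (pileup 11) without, and the neomycin peak lay within the untreated peak. The replicates 2 had none, and their nearest peaks were 118 and 115 kb away. Since 1 library of each group had a peak and the other had none, presence of the mark at Pou4f3 did not separate the groups.

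Gfi1, Barhl1 and Lhx3 had peaks in untreated replicate 1 alone. Gfi1, a zinc finger repressor needed for hair cell survival, lies on chromosome 5 from 107716655 to 107725805 and had 3 peaks in that library, of 187, 380 and 188 bp, the last of them 0.936 kb before the start site. Barhl1, a homeobox factor that maintains hair cells, lies on chromosome 2 from 28907680 to 28917984 and had peaks of 368 and 344 bp there, the second across the upper end of the gene. Lhx3, a LIM homeobox factor of hair cells, lies on chromosome 2 from 26200212 to 26208249 and had a single peak of 211 bp, 1.02 kb from the nearer of its 2 RefSeq start sites. In the other 3 libraries the nearest peaks lay 118 to 143 kb from Gfi1, 66.5 to 66.7 kb from Barhl1 and 28.9 kb from Lhx3. Because untreated replicate 2 had no peak at these 3 genes either, they do not separate the groups.

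Insm1 and Ikzf2, which promote the outer hair cell fate, were marked in both groups. Insm1, a zinc finger factor on chromosome 2 from 146221997 to 146225020, had 4 peaks summing to 1115 bp in untreated replicate 1 and 1 peak of 241 bp in untreated replicate 2, which overlapped 1 of the 4 by 141 bp. Neomycin replicate 1 had 1 peak of 48 bp with a pileup of 5, the shortest length in its list, and neomycin replicate 2 had none within 187 kb. Ikzf2, which encodes the zinc finger factor Helios on chromosome 1 from 69531207 to 69687351, had a peak of 187 bp across its upper end in untreated replicate 1 and a peak of 145 bp 0.357 kb outside that end in neomycin replicate 2. These 2 peaks did not overlap, and the other library of each group had none. For Pou4f3, Insm1, Ikzf2 and Tbx2 no RefSeq start site was in the table used. The gene end with peaks in more libraries stands for their start, so a mark there follows in part from that choice.

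Rfx1 and Rfx3, winged-helix factors known for the genes of cilia and needed for hair cell survival, had peaks in 3 and 4 libraries, respectively. Rfx1, on chromosome 8 from 84063564 to 84097001, had a single peak in each of 3 libraries. It was 128 bp long in neomycin replicate 2 (pileup 12), 386 bp in untreated replicate 1 (pileup 18) and 270 bp in untreated replicate 2 (pileup 10), and it began 0.063, 0.059 and 0.063 kb after the RefSeq start site at base 84066836. Neomycin replicate 1 had no peak at Rfx1, and its nearest was 7.32 kb from the gene. The 3 peaks shared 128 bp, the whole of the neomycin peak.

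Rfx3, on chromosome 19 from 27761721 to 28014669, was the only member with a peak in all 4 libraries. Its peaks surrounded the RefSeq start site at base 28011166. Neomycin replicate 1 had 62 bp of peak 0.254 kb after the start (pileup 6), neomycin replicate 2 had 110 bp 0.15 kb before it (pileup 10), and untreated replicate 2 had 619 bp beginning 0.17 kb after it (pileup 15). Untreated replicate 1 had 3 peaks of 276, 208 and 189 bp, of which 1 overlapped each neomycin peak. The 2 neomycin peaks did not overlap, so the single regions at Rfx3 were marked in at most 3 libraries.

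**Figure D2:**
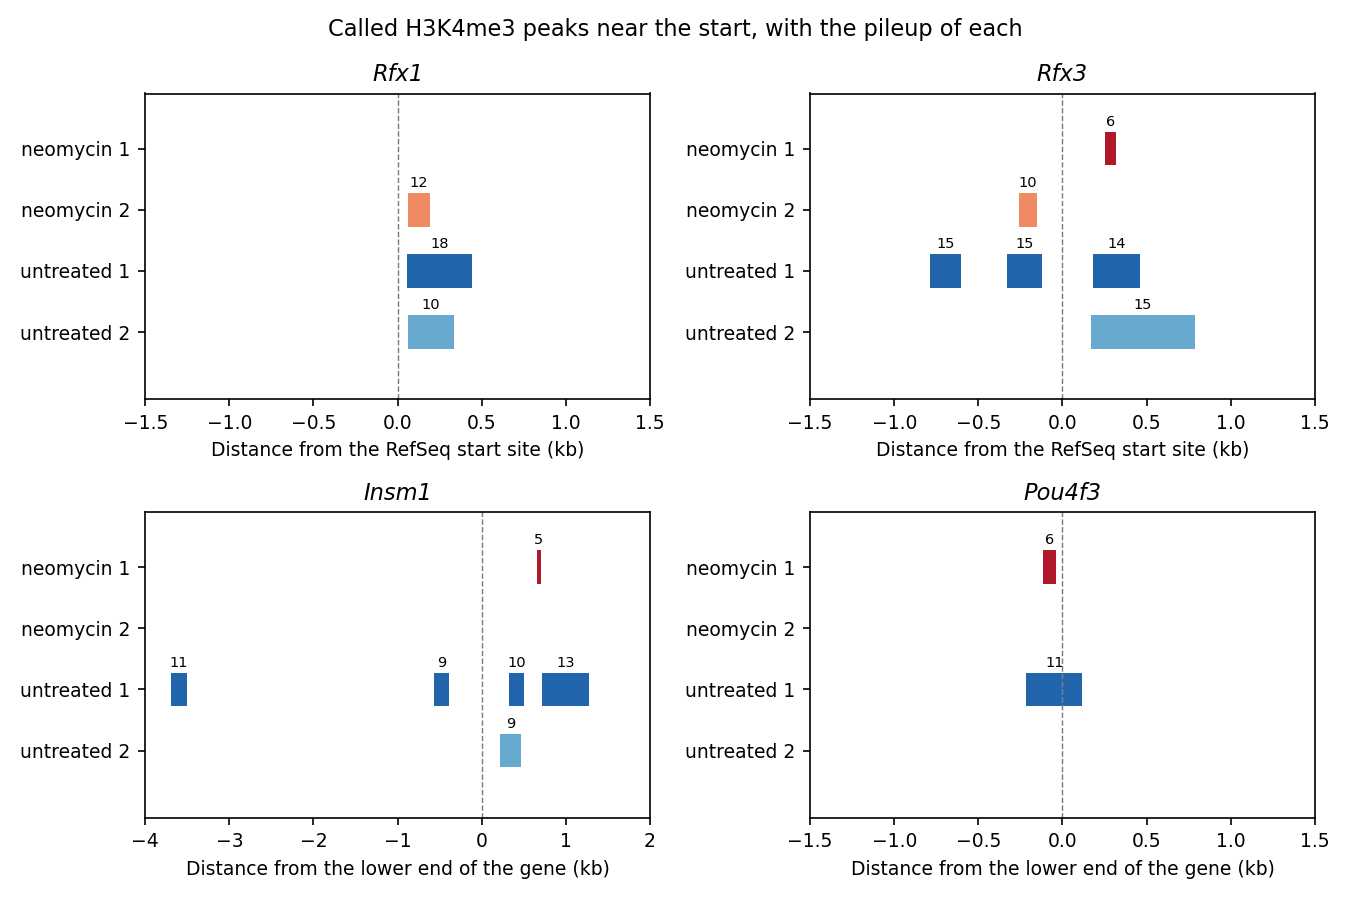
Called peaks at Rfx1, Rfx3, Insm1 and Pou4f3 in the 4 libraries. The x axis is the distance in kb from the RefSeq start site of Rfx1 and Rfx3 or from the lower end of Insm1 and Pou4f3, each bar is a peak, and the number above it is its pileup. The Rfx1 peaks begin at nearly the same place in 3 libraries, and Rfx3 has a peak in each of the 4.

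Over the gene and 5 kb either side, 4 and 4 of the 10 members had a peak in neomycin replicates 1 and 2 and 10 and 5 in untreated replicates 1 and 2. Of all protein-coding genes, 42.6% and 41.1% had one with neomycin and 54.2% and 42.9% without. The members' share lay near the background in 3 libraries and above it in untreated replicate 1. Untreated replicate 2 had 1 marked member more than either neomycin library, so the 2 untreated libraries differed more from each other than untreated replicate 2 did from the neomycin libraries. In this window no member was marked in both libraries of 1 group and in neither of the other. Of all genes, 4.29% were untreated only in this sense and 1.5% neomycin only. Rfx3 alone was marked in all 4 libraries, against 23.1% of all genes, and Gfi1, Barhl1 and Lhx3 were marked in untreated replicate 1 alone, against 3.85%. Fewer cells of a type that carries the mark and less mark per cell cannot be told apart in such pooled cells.

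At the start site, taken as 1 kb either side of the gene end, 2 and 1 members were marked with neomycin and 7 and 3 without. The background was 32.1%, 31% and 44%, 33.7% of genes in the same order of libraries. Atoh1 and Tbx2 were the 2 members whose start was marked in the untreated libraries only and in each of them, against 4.61% of all genes, and no member had the reverse, against 1.37%. When the start sites of the RefSeq table were used in place of gene ends, a choice made after seeing the data, Rfx1 and Rfx3 also counted as marked. The members marked were then 3 and 3 with neomycin and 9 and 5 without, beside 34.8%, 33.6%, 47% and 36.3% of genes. The untreated-only members were still Atoh1 and Tbx2 (background 4.66%), and none was neomycin only (1.41%). The RefSeq start of Atoh1 is its gene end, and the 4 members without a RefSeq start, Tbx2 among them, kept the gene end. The pattern of Atoh1 and Tbx2 could therefore not change, and its repeat adds no support. Presence was not tested per gene, since the 4 libraries part into pairs in only 3 ways.

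The peaks in the 10 windows merged into 32 regions. Of these, 19 had a peak in 1 library, 9 in 2, 4 in 3 and none in 4. There were 6 and 4 peaks in the neomycin libraries against 26 and 14 in the untreated ones, of which Tbx2 held 8 and 7. Without Tbx2 the numbers were 3 and 4 against 18 and 7. Both untreated libraries and no neomycin library shared 6 regions, which were at Atoh1, Tbx2 and Insm1, and no region was shared by both neomycin libraries. Peaks and regions were not counted in this way over all genes, so these numbers are a description and not a result particular to the members. Every neomycin peak at the members had a q weaker than a -log10 of 10, a level reached by 5.26% and 2.45% of peaks in the neomycin lists. In the untreated libraries 9 and 3 of the members' peaks reached it, against 39.4% and 21.5% of the lists. With these stronger peaks alone, Barhl1, Atoh1, Rfx1, Tbx2 and Rfx3 were marked in untreated replicate 1, Tbx2 and Rfx3 in untreated replicate 2, and no member with neomycin. The share of all genes with such peaks was not counted. Few peaks anywhere in the neomycin lists reached the level, so this contrast is not a result about the members.

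**Figure D3:**
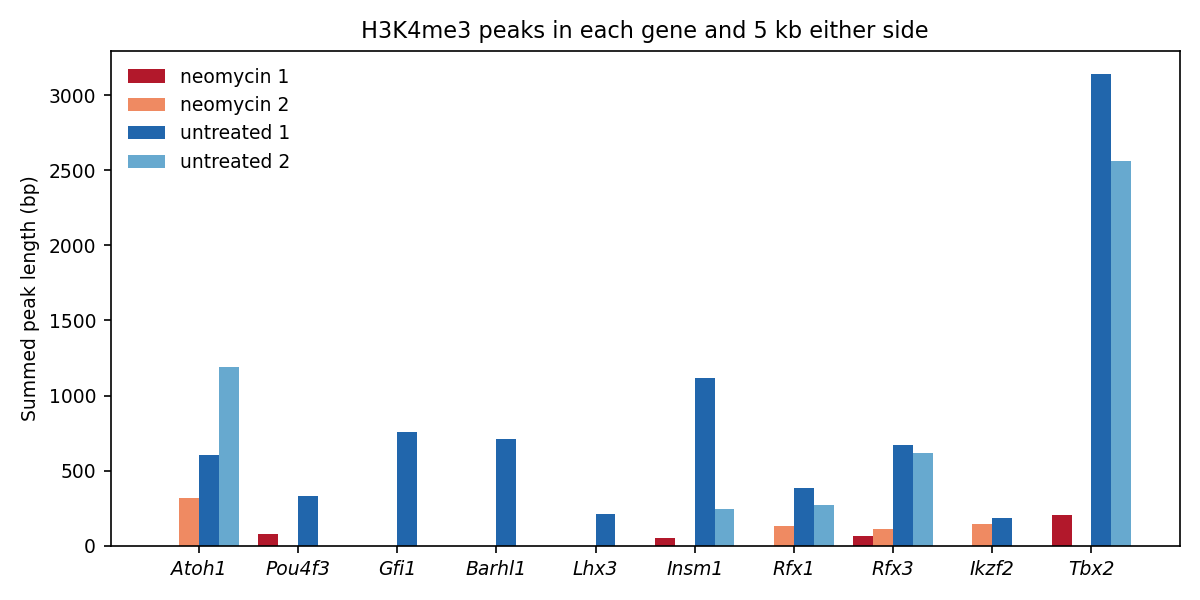
Summed length in bp of the called peaks in each gene and 5 kb either side, 1 bar per library, from an axis that starts at 0. Tbx2 stands highest, at 3139 and 2562 bp in the untreated libraries, and Gfi1, Barhl1 and Lhx3 have a bar in untreated replicate 1 alone.

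Rfx3 was the 1 member that could be tested for peak length without filling in missing peaks. Its peaks summed to 62 and 110 bp with neomycin and 673 and 619 bp without. Set against the median of each library over the 5059 genes with peaks in all 4 libraries (147, 258, 660 and 519 bp), these stood at -1.25 and -1.23 with neomycin and 0.03 and 0.25 without on the log2 scale. The groups did not overlap, as for 20.8% of the 5059 genes in this direction, and the difference of -1.38 (SE 0.57, lower in 2 of 2 neomycin libraries) did not pass the test, with an adjusted p of 0.453 in limma. No gene passed in either direction (0% of 5059 higher and 0% lower; 478 genes had an unadjusted p under 0.05). The medians themselves differed by -1.59 on the log2 scale. Without centring, Rfx3 differed by -2.97 (SE 0.74, adjusted p 0.0139 in limma, the lowest of a range up to 0.999 over the alternatives), along with 1469 genes in the same direction and none in the other. The highest pileup at Rfx3 was 6 and 10 with neomycin and 15 and 15 without, a centred log2 difference of -0.45 (SE 0.22, adjusted p 0.663 in limma), where 0.0395% of genes were called higher and 0.0593% lower.

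The other 9 members lacked a peak in some library. With 100 bp added to each sum, the 13634 genes that had a peak in at least 1 library could be fitted, and none of the 10 passed the limma test. Tbx2 had the smallest adjusted p, 0.155, with a log2 difference between neomycin and untreated of -2.85 (SE 0.75). The difference was -1.0 at Atoh1 (SE 0.75) and -1.19 at Insm1 (SE 0.73), with adjusted p of 0.601 and 0.49. It was positive at Ikzf2 (1.1, SE 0.71, adjusted p 0.524), Pou4f3 (0.58, SE 0.75, adjusted p 0.81) and Lhx3 (0.4, SE 0.71, adjusted p 0.866), and between -0.8 and -0.27 at the other 4. Lhx3 had its only peak in untreated replicate 1, so its positive value comes with the centring of each library on its own median, and the sign of these small differences is not to be read as a direction of the mark.

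Regulators of Atoh1 were marked at the start more often than all genes in each library. Of 24 regulators of Atoh1, 15 and 16 had a peak within 1 kb of the start with neomycin and 23 and 18 without, and 11 had one in all 4 libraries. Of all genes, 32.1% and 31% had one with neomycin, 44% and 33.7% without, and 14.8% in all 4 libraries. The 11 were the receptor Notch1 and its ligand Jag1, the repressors Hes5, Hey1 and Hey2, the bHLH inhibitors Id1, Id2 and Id4, the E proteins Tcf4 and Tcf12, and Prox1, a homeobox factor of supporting cells. Notch1, Jag1, Hes5, Hey1, Hey2, Prox1 and Sox2 are also among the supporting cell markers. At Hes5, a Notch effector that represses Atoh1, the start-site peaks summed to 171 and 274 bp with neomycin and 828 and 265 bp without, so the groups overlapped. At Hey1 they summed to 96 and 173 bp against 393 and 400 bp, and at Hey2 to 98 and 238 bp against 846 and 333 bp, with both untreated sums the higher. Sox2, which activates Atoh1 in progenitors, had 0 and 154 bp against 1108 and 1109 bp, and a peak of 48 bp elsewhere in its window in neomycin replicate 1. Id3, Ctnnb1 and Eya1 were untreated only at the start, as were 4.61% of all genes. Each of these 3 had a peak within the gene or 5 kb of it in at least 1 neomycin library. None of the 24 was neomycin only, against 1.37% of all genes. Over the members, peaks at the start summed to 127 and 145 bp with neomycin and 3695 and 1849 bp without. Both untreated sums were the higher at 3 members, Insm1, Atoh1 and Tbx2, and at 52.3% of the 11320 genes with a start-site peak in at least 1 library. The reverse held at no member and at 2.91% of those genes, so these totals are not a result particular to the members.

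Fewer of the other transcription factors of the hair cell lineage were marked than of the regulators. Of 24, 4 and 7 (16.7% and 29.2%) were marked at the start with neomycin and 11 and 11 (45.8% each) without. All genes stood at 32.1% and 31% with neomycin and 44% and 33.7% without. The list lay below them in neomycin replicate 1, above them in untreated replicate 2 and near them otherwise. Lmo4, Pou4f1 and Rest were marked in all 4 libraries, as were 14.8% of all genes. Barhl2, the paralog of Barhl1, Emx2, a homeobox factor that orients hair cells, and Rxra, a retinoid receptor, were untreated only, as were 4.61% of all genes. Emx2 had 772 and 782 bp of start-site peaks in the untreated libraries, and neither Emx2 nor Barhl2 had a neomycin peak within 5 kb, whereas Rxra had 2 and 1. Genes of hair cell differentiation were often without a start-site peak, as were 48.3% of all genes. Of 42, 5 and 8 (11.9% and 19%) had one with neomycin and 13 and 8 (31% and 19%) without, below all genes in each library. The 42 include Hes6, Dll1 and Jag2, which are also among the regulators. In all, 26 had none in any library, among them the myosin Myo7a, the synaptic protein Otof and the motor protein Slc26a5. Dnm1, a dynamin of synaptic vesicle recycling, was untreated only.

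Some markers of cochlear mesenchyme had start-site peaks only without neomycin. So did Atoh1, Tbx2 and genes of the regulator, other factor, differentiation and glial lists. Of all genes, 32.1% and 31% had a start-site peak with neomycin and 44% and 33.7% without, and 4.61% were untreated only. Of 14 mesenchyme and fibrocyte markers, 0 and 0 had a start-site peak with neomycin and 4 and 5 without, summing to 0 and 0 bp against 1619 and 2353 bp. Over the gene and 5 kb either side, 1 and 4 of them had a peak with neomycin and 6 and 6 without. Coch, Prrx2, Sp7 and Twist1 were untreated only in both windows, against 4.29% of all genes in the wider one. Otos, a fibrocyte gene with no start-site peak, was neomycin only in the wider window (66 and 182 bp), as were 1.5% of all genes. The collagen genes Col1a1, Col1a2 and Col3a1 and the factors Pou3f4, Prrx1 and Runx2 had no start-site peak in any library. The part of such cells in the marks at Atoh1 and Tbx2 was not tested. Neuron markers were marked in 3 and 4 of 15 with neomycin and 6 and 4 without, a share below that of all genes in each library. They summed to 532 and 878 bp against 2843 and 2317 bp. Nefm had a start-site peak in all 4 libraries, as did 14.8% of all genes, and Neurod1, Neurog1 and Prph had none. Over the gene and 5 kb either side, Gata3, Isl1, Nefm and Ntrk2 were marked in all 4 libraries, as were 23.1% of all genes. Glial markers were marked in 2 and 2 of 9 with neomycin and 5 and 3 without, and summed to 295 and 443 bp against 1989 and 748 bp.

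**Figure D4:**
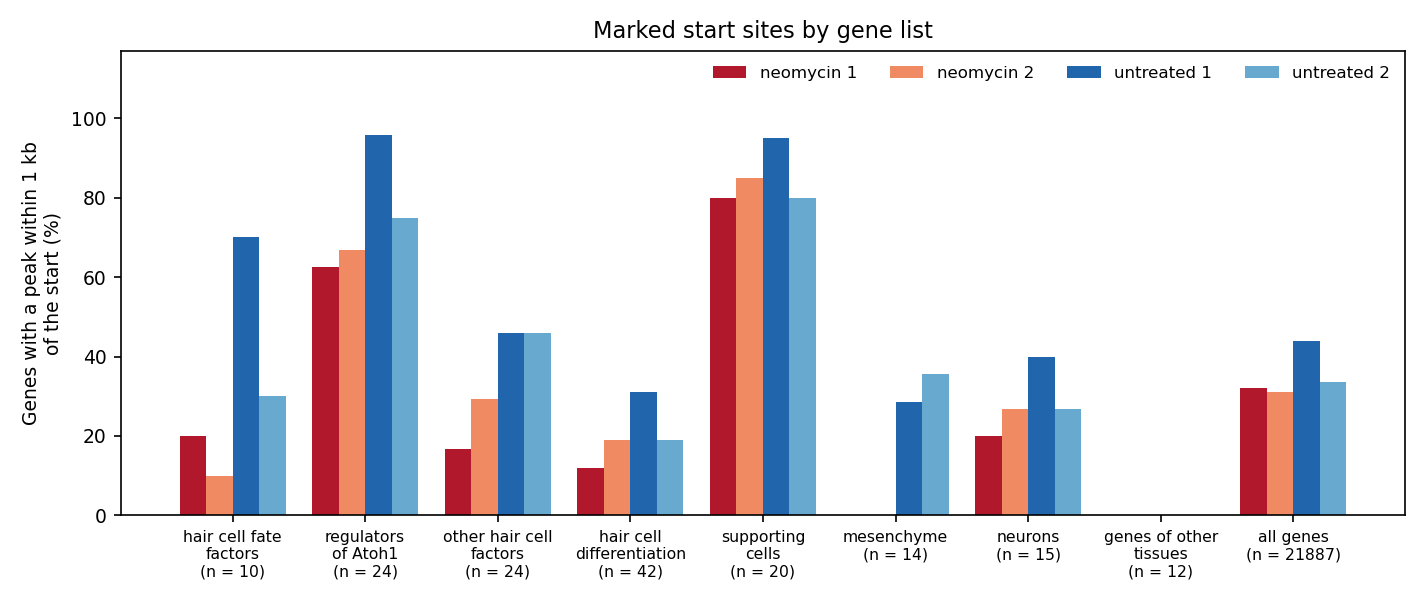
Share of genes in percent with a peak within 1 kb of the start, by gene list and library, from an axis that starts at 0, with the number of genes under each list. Supporting cell markers lie at 80% or more in every library, mesenchyme markers are at 0% in both neomycin libraries, and the hair cell fate factors reach 70% in untreated replicate 1 alone.

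The members' start sites differed in CpG content. In the 300 bases from 250 before to 50 after each RefSeq start site, the number of CpG was 31 at Rfx3, 25 at Rfx1 and 20 at Atoh1, which had a peak within 1 kb in 4, 3 and 2 libraries. The 2 sites of Gfi1 had 16 and 10 CpG and the upper RefSeq site of Barhl1 had 9, with a peak in 1 library each. That Barhl1 site, at base 28916668, lies inside the gene. Its peak within 1 kb was the one of 368 bp, 0.704 kb away, while the peak of 344 bp across the gene end lay 1.14 kb away. The other site of Barhl1, with 14 CpG, and both sites of Lhx3, with 13 and 28, had no peak within 1 kb. Lhx3 and the second site of Barhl1 broke the order, and the only Lhx3 peak lay 1.02 kb from the site with 28 CpG. Over 21263 start sites of protein-coding genes, the median number of CpG was 3 where no library had a peak and 17, 21, 24 and 26 where 1, 2, 3 and 4 had one. Set against the quartiles of all start sites with as many marked libraries, Rfx3, Rfx1, Atoh1 and 1 site of Gfi1 lay inside. The upper Barhl1 site and the other Gfi1 site were below the lower quartile of 11, and the 3 sites with no peak were above the upper quartile of 7.

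**Figure D5:**
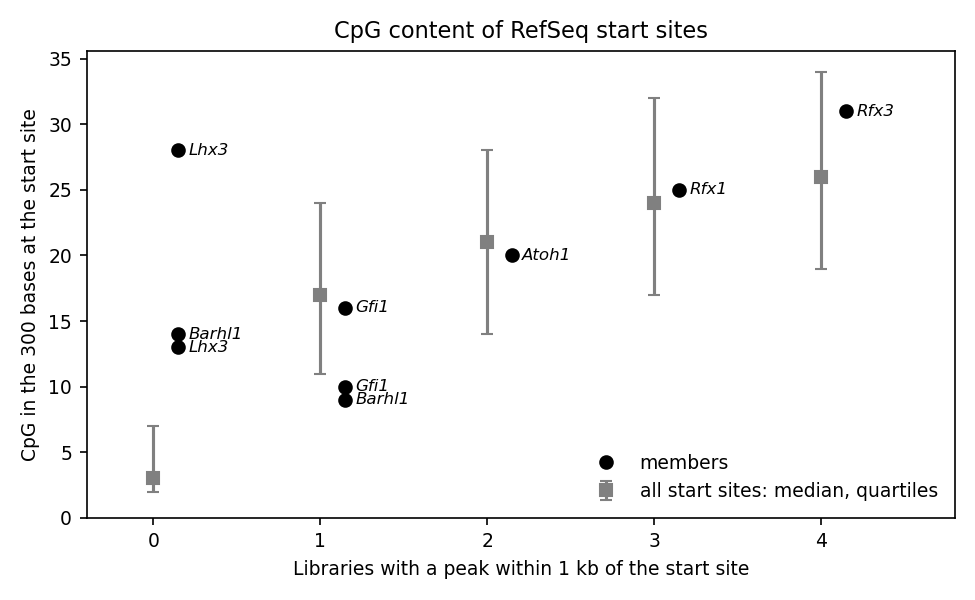
Number of CpG in the 300 bases at each RefSeq start site against the number of libraries with a peak within 1 kb of it. Black points are the 9 start sites of the 6 members in the table, and grey squares with bars are the median and quartiles of all 21263 start sites. Rfx3, Rfx1 and Atoh1 lie close to the median for their number of libraries, and Lhx3 with 28 CpG and no library lies far above its own.

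Short motifs in these 9 windows of 300 bases were searched on both strands. The E-box CANNTG, which bHLH factors bind, was in 6 of the 9 and in 69.0% of all windows. Its forms CAGCTG (2 of 9 against 15.6%), CAGATG (1 against 14.6%) and CACGTG (0 against 7.84%) are counted within it. The N-box CACNAG of Hes factors was in 4 against 41.9%, the Gfi1 core AATCAC in 1 against 9.81%, and TATAAA in 1, at Lhx3, against 12.6%. The core GTTGCC of the Rfx site was in 2 of the 9, at Rfx1 and Rfx3 themselves, against 12.6% of windows. The Atoh1 window held no CANNTG.

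By likeness of summed peak length over the gene and 5 kb either side (log2 with 100 bp added, Euclidean distance over the 4 libraries), the 5 genes closest to Atoh1 were Ncoa6, Zfp629, Cyth1, C77080 and Ubqln1, at distances of 0.377 to 0.478. Ncoa6, which encodes a nuclear receptor coactivator, had 0 and 343 bp with neomycin and 678 and 921 bp without. All 5 had 0 bp in neomycin replicate 1, as Atoh1 did, which follows from their choice by likeness in these same libraries.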

How the data were processed

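The members, lists and tests were chosen with earlier results of these data known. The submitters' processing notes name mm10, CASAVA 1.4, Bowtie2, MACS2 and deepTools, with no roles or parameters. Per the file headers, each of the 4 deposited lists gives, for every peak of 1 library, its start, end and length (bp) and the pileup, a signal taken at its summit. The authors' peak caller also gave each peak a fold enrichment (a ratio over local background) and -log10 p-values and q-values, used here only to describe, rank or filter peaks within a list.

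Peaks were counted where they overlapped, by at least 1 bp, the gene plus 5 kb either side or the start site plus 1 kb either side. The start was the gene end given by the strand in the RefSeq promoter table (GRCm38.p6), which held 17492 of 21887 protein-coding genes. For the other genes it was the end with peaks in more libraries, then with more peak bases, then the lower one. Summed lengths and highest pileups were compared as log2 values centred on each library's median in limma 3.58.1 (R 4.3.3). A gene was called at an adjusted p below 0.05 (Benjamini-Hochberg over all genes tested). Counting and fitting were tested on simulated data. The text names all 10 members and the 5 genes most like Atoh1. From each other list it names up to 4 genes per direction with start-site peaks in both libraries of 1 group and in neither of the other. Examples named beside these, such as Sox2, Hes5 and Myo7a, were chosen after their values were seen. Other steps used Python 3.11.15, pandas 2.3.3 and numpy 2.4.6. Alternatives covered windows, peak strength, equal lists, centring, the replicate block and leaving out each library.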

Additional observations from a re-analysis of the deposited data

How the results depend on the processing

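Counting only peaks with a -log10 q of 10 or more, members marked in the gene window numbered 0 and 0 with neomycin and 5 and 2 without, and at the start 0 and 0 against 3 and 1. That level was reached by 5.26% and 2.45% of all peaks in the neomycin lists and 39.4% and 21.5% in the untreated lists. The contrast in these counts is therefore not a result about the members. A start window of 0.5 kb, or equal lists of 10520 peaks, left 1 marked member in neomycin replicate 1. RefSeq start sites, chosen after seeing the data, gave 3 in neomycin replicate 2 and 5 in untreated replicate 2. Untreated-only members in the gene window went from 0 to 1 with a 1 kb flank (Atoh1), 2 with the stronger peaks (Tbx2 and Rfx3) and 1 with equal lists (Insm1). The share of all genes was not counted with that flank, with the stronger peaks or with equal lists. Leaving out a library gave 0 to 3: Insm1 and Tbx2 without neomycin replicate 1, Atoh1 and Rfx1 without neomycin replicate 2, and Gfi1, Barhl1 and Lhx3 without untreated replicate 2. The share of all genes that are untreated only was higher too, from 4.29% to 10.9%, 10.2% and 8.13% in these settings and 5.34% without untreated replicate 1. At the start they numbered 1 with the stronger peaks (Tbx2) and 2 to 4 when a library was left out (3 without neomycin replicate 1, 4 without untreated replicate 2), beside 10.8% and 8.65% of all genes in these settings. No alternative run made a member neomycin only. The causes were not tested, except that stricter peaks leave fewer to count.

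Without centring, 1469 genes had lower summed length with neomycin. Leaving out a library gave 0 to 74 genes higher and 0 to 145 lower, the larger counts without neomycin replicate 2. For pileup, 7 genes were higher with a 1 kb flank and 5 lower with equal lists, and 0 in either direction when any library was left out. Same-numbered libraries did not deviate together in length or pileup (correlation -0.01 over 5059 genes). This cannot show whether they were cultured or prepared together, which the labels do not say. With the replicate block, no gene was called for length and 0 higher and 0 lower for pileup, and Rfx3 differed in length by -1.38 (adjusted p 0.524 in limma). Rfx3 kept its negative sign under each alternative. The depth is unknown, and 2 libraries a group limit what could be called.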

Other observations

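Other cell markers were set beside all genes, of which 32.1% and 31% had a start-site peak with neomycin and 44% and 33.7% without. Of 10 markers of melanocytes and stria, 3 and 3 had one with neomycin, near that share, and 2 and 0 without, below it. Of 8 endothelial markers 2 and 1 had one with neomycin and 1 and 0 without, below all genes in each library. Among them Flt1, a receptor for vascular endothelial growth factor, was marked in both neomycin libraries alone, as were 1.37% of all genes. None of 9 immune and blood markers had one. Among glial markers, Pou3f1, a POU-domain factor of Schwann cells, was marked in both untreated libraries alone, with 215 and 261 bp. The same held for 4.61% of all genes.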
